A study of Homo sapiens with 45 samples.

Results

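SLFN11, the PARP enzymes and 7 other DNA repair genes were followed across Ewing sarcoma and osteosarcoma cell lines. The 10 genes were SLFN11, PARP1, PARP2, PARG, XRCC1, BRCA1, BRCA2, ATM, ATR and MGMT, out of 41582 genes in the tables. They were chosen from a list of genes known for the sensitivity of Ewing sarcoma cells to DNA-damaging drugs and PARP inhibitors. The rule uses no measured value, but the choice was made with earlier results of these data known. All 10 were present in the tables and all 10 passed the filter on low counts in each comparison.

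The study measured poly(A) RNA in 45 libraries from human tumour cell lines. There were 7 Ewing sarcoma lines (TC71, SKES1, RDES, MHHES1, EW24, EW3 and A673) and 6 osteosarcoma lines (G292, HOS-MNNG, KHOS, MG63, SAOS2, U2OS), with 3 libraries per line. The other 6 libraries came from A673 cells that carried sh908, 3 without doxycycline (uninduced) and 3 with doxycycline (induced). The study's title concerns the fusion protein EWS::FLI1, which drives most Ewing sarcomas, and the potassium channel gene KCNN1, which the sh908 hairpin targets under the control of doxycycline. All are established cell lines, HOS-MNNG and KHOS both derive from the HOS line, and every sh908 library shares the A673 background. No label says whether the libraries of a group came from separate cultures, so p-values among sh908 and A673 libraries measure only the spread between these samples, which may be technical.

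Cells repair a broken DNA strand and a break of both strands by different routes. PARP1 and PARP2 bind a nicked strand and build poly(ADP-ribose) chains, PARG removes the chains again, and XRCC1 is the scaffold on which the ligation enzymes assemble. BRCA1 and BRCA2 serve homologous recombination, the accurate route for breaks of both strands, ATM and ATR are the kinases that signal breaks and stalled replication forks, and MGMT strips alkyl groups from guanine. SLFN11 is recruited to stalled forks and blocks them for good, cells with high SLFN11 are known to be killed more readily by PARP trapping and by topoisomerase poisons, and Ewing sarcoma is known for high SLFN11.

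Promoter windows are shown for SLFN11 and MGMT because these were the only 2 of the 10 genes with a line near 0. They are RefSeq windows on GRCh38.p14 from 250 bases before to 50 bases after the start of the gene, written along the gene's strand. The SLFN11 window is chr17:35373572-35373871, minus strand, with capitals for the core GGAA of ETS factors such as FLI1, on either strand (TTCC on the other one). The MGMT window is chr10:129466991-129467290, plus strand, with capitals for CG dinucleotides.
SLFN11: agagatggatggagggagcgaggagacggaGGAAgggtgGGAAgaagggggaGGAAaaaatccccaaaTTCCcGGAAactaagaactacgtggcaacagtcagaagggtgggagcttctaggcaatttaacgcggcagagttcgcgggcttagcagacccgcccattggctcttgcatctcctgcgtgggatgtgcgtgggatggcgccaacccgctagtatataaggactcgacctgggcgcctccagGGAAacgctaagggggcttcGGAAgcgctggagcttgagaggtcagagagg
MGMT: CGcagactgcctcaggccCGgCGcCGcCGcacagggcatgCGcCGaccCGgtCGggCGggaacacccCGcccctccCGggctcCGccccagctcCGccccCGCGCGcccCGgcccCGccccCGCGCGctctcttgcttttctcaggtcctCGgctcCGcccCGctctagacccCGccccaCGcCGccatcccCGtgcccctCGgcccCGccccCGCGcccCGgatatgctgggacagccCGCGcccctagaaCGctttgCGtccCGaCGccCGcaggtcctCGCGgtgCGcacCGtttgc

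The SLFN11 window held 7 matches to GGAA, against a median of 3 over 35116 promoter windows of the same length, 95.5% of which held at least 1. This count was not particular to SLFN11, since PARG had 9 matches, PARP2 8, and ATR and a BRCA1 window 7 each. All other windows of the members held 1 to 5. The SLFN11 window held 18 CG dinucleotides, more than 55.5% of windows. The MGMT window held 45 CG dinucleotides, more than 96.5% of windows, and 1 match to GGAA. The repeat GGAAGGAA, which occurred in 3.67% of all windows on either strand, was in the window of none of the 10 genes. The longer ETS motif CCGGAAGT, present in 4.14% of windows, occurred once among the members, in the BRCA2 window at chr13:32315258-32315557. The E2F motifs TTTCGCGC and TTTGGCGC, present in 0.515% and 0.652% of windows, had no match among them. A match is a description of letters and not a site, and DNA methylation was not measured in these samples.

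Levels are given as TPM, the share of a transcript in the library's RNA molecules, which the authors scaled for transcript length and depth, so they can be compared between genes. Library totals ranged from 15974173 to 51413254 estimated counts. Libraries of the same line correlated at a Pearson r of at least 0.974 across genes, and the lowest value was in TC71, whose replicate 3 had a lower ratio of long to short transcripts than the other 2. In the sh908 groups, replicate 3 stood apart from replicates 1 and 2 with and without doxycycline, with correlations between 0.946 and 0.953. The labelled tumour types were checked on 8 markers each. All 8 Ewing sarcoma markers had the higher mean in the Ewing sarcoma lines, 4 of them with no overlap between lines, and all 8 osteosarcoma markers had the higher mean in the osteosarcoma lines, each with some overlap. Blood markers (4 genes) summed to at most 10.01 TPM and endothelial markers (3 genes) to at most 6.83 TPM in any line, while epithelial markers (4 genes) summed to between 3.74 TPM (an Ewing sarcoma line) and 1737 TPM (an osteosarcoma line).

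SLFN11 was the member with the widest range between lines, and its mean RNA level was higher in every Ewing sarcoma line than in any osteosarcoma line. Its gene lies at chr17:35350305-35373621 on GRCh38.p14. The Ewing sarcoma lines had a mean level of 96.7 ± 44.7 TPM (SD, n = 7 lines). EW3 (149 ± 42.5 TPM, SD, n = 3 libraries), RDES (143 ± 2.84) and EW24 (138 ± 5.13) formed an upper set whose libraries overlapped. SKES1 (70.7 ± 6.16 TPM), MHHES1 (67.1 ± 5.72) and TC71 (67.0 ± 21.5) came below them, with libraries that overlapped each other but not EW24. A673 was the lowest Ewing sarcoma line at 45.3, 37.6 and 43.2 TPM. The A673 cells that carried sh908 were lower, with means of 23.9 TPM uninduced and 21.4 TPM induced. Both means lay below that of the osteosarcoma line MG63 (37.9 TPM).

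The osteosarcoma lines had a mean SLFN11 level of 13.8 ± 13.96 TPM (SD, n = 6 lines), and their levels fell into separate ranges. MG63 was highest, with 40.3, 37.3 and 36.1 TPM. These libraries overlapped those of A673, so the order of the 2 line means does not separate their libraries. SAOS2 (16.9 ± 2.32 TPM), KHOS (16.4 ± 2.30) and HOS-MNNG (11.4 ± 2.84) were next. U2OS had 0.302, 0.104 and 0.321 TPM, and G292 had 0.0279, 0.0280 and 0.0150 TPM, which rested on 3, 3 and 1 estimated counts in turn. SLFN11 RNA was therefore at the level of a few reads in G292 and below 1 TPM in U2OS. In bulk RNA, fewer cells with SLFN11 and less SLFN11 RNA per cell cannot be told apart.

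**Figure D1:**
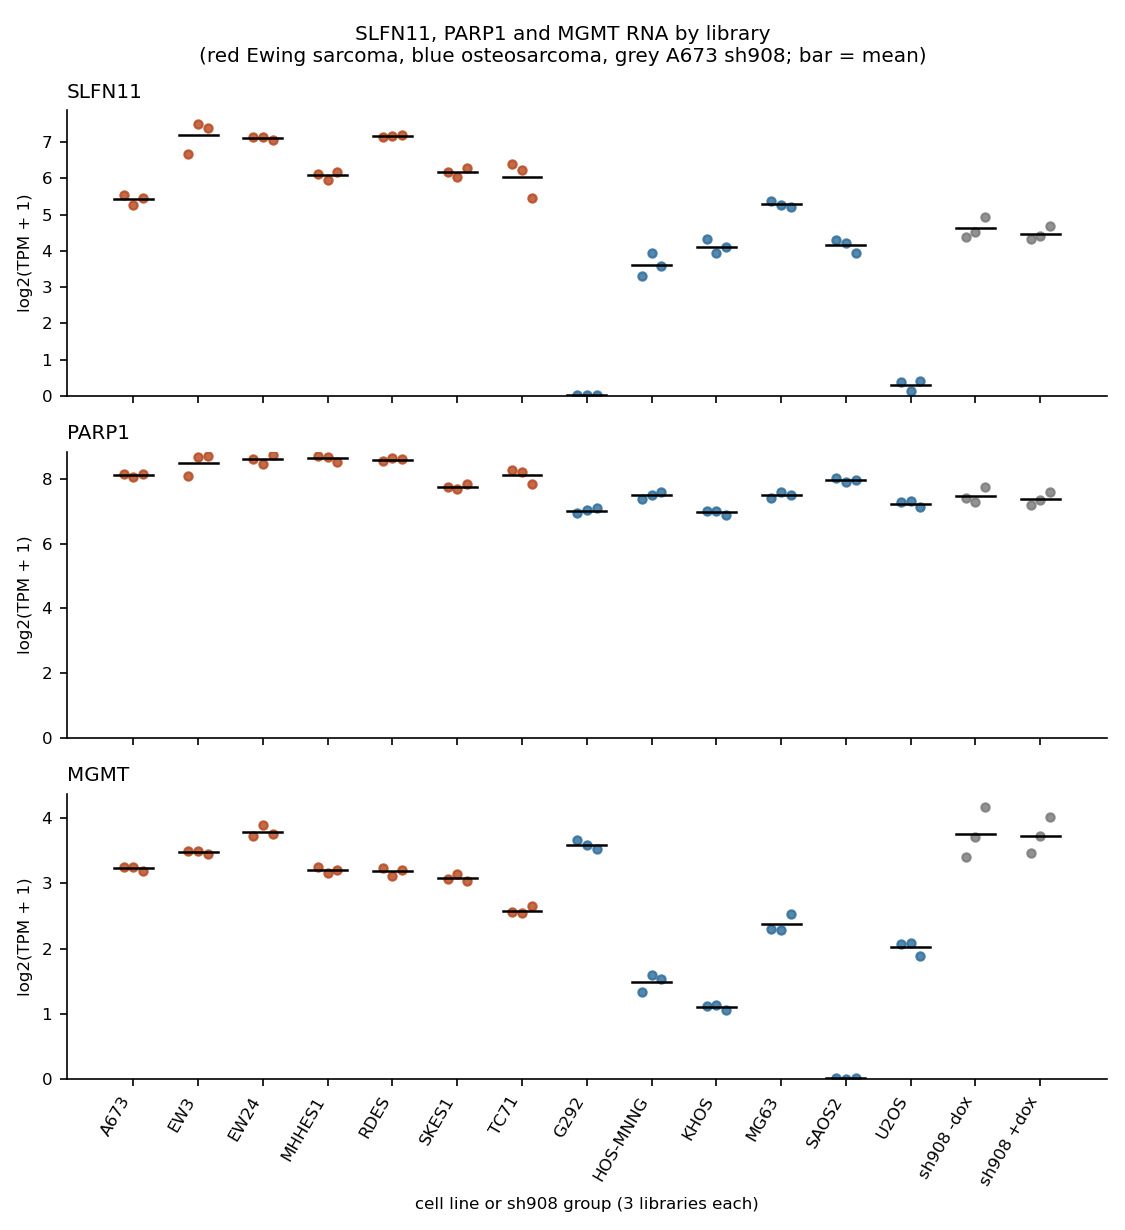
RNA levels of SLFN11, PARP1 and MGMT, as log2(TPM + 1) on the vertical axis, in the 13 cell lines and the 2 sh908 groups along the horizontal axis, with 1 point per library and a bar at the mean of 3 libraries. SLFN11 is near 0 in G292 and U2OS, MGMT is near 0 in SAOS2, and PARP1 spans a narrower range.

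Between the tumour types, all 7 Ewing sarcoma line means of SLFN11 lay above all 6 osteosarcoma line means, a pattern met by 3.19% of the 22000 genes tested (5.58% in either direction). The sh908 cells, with means below that of MG63, were left out of this comparison. The log2 fold change was 2.58 (SE 1.047, n = 7 and 6 lines), and edgeR's quasi-likelihood test with Benjamini-Hochberg adjustment gave an adjusted p of 0.118, so SLFN11 was not called. This test calls a gene at an adjusted p under 0.05, and 14.4% of all genes were called. SLFN11 was called by DESeq2 (log2 fold change 2.56, adjusted p = 0.0357), which called 25.1% of genes, and by limma on log2(TPM + 1) (log2 difference 3.54, adjusted p = 0.0116), which called 11.8%. The spread among the osteosarcoma lines, an SD of 2.20 on the log2(TPM + 1) scale, was larger than that among the Ewing sarcoma lines, 0.70, and both exceeded the pooled SD between libraries of 1 line, 0.19 and 0.27. The call by edgeR was also missed with each of the 13 lines left out in turn, with log2 fold changes of 2.31 to 3.17 and edgeR adjusted p of 0.0718 to 0.177.

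SLFN11 had 17 annotated transcripts in the tables. In the 11 lines with at least 30 estimated counts in every library, the transcript NM_001376007.1 carried the largest mean share, 50.6% ± 4.72 of the gene's TPM (SD, n = 11 lines), and the share ranged from 42.9% to 58.4%.

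Of the other Schlafen genes, which encode proteins related to SLFN11 and are regulated by interferon in many cells, none was called between the tumour types by edgeR. With SLFN11 this made 0 of 6 family members, where edgeR called 14.4% of all genes. SLFN11 was called by DESeq2 and limma, as given above. Their median log2 fold change was 0.05, against -0.06 over all genes tested. SLFN5 averaged 4.41 TPM over Ewing sarcoma lines (0.678 in A673 to 9.37 in EW24) and 4.75 TPM over osteosarcoma lines (3.12 to 8.96). SLFN12 ranged from 0.251 TPM in EW24 to 22.2 in TC71 and 27.7 in U2OS. SLFN12L stayed below 3 TPM, SLFN13 reached 7.40 TPM in KHOS, and SLFN14 did not exceed 0.127 TPM in any line. G292 and U2OS, the lines with SLFN11 under 1 TPM, had SLFN12 at 8.38 and 27.7 TPM.

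Interferon response genes had their highest summed levels in MHHES1 and G292, lines with unlike SLFN11 levels. In the 3 MHHES1 libraries the summed level of 17 interferon genes was 572, 899 and 5036 TPM, and SLFN11 was 68.8, 60.7 and 71.7 TPM. G292 had a mean summed level of 1644 TPM and almost no SLFN11. Between the tumour types edgeR called 0 of 17 interferon genes, against 14.4% of all genes, with a median log2 fold change of -0.18.

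The genes whose mean log2(TPM + 1) over the 13 lines was most like that of SLFN11 were AGPAT3 (Pearson r = 0.956), PAX3 (0.927), GPX7 (0.923), DCTN5 (0.916) and LOC105371933 (0.915), out of 16528 genes with a mean of at least 1 TPM. These values are descriptions over 13 lines that share their libraries and 2 tumour types. PAX3, a neural crest and muscle transcription factor, had 9.90 to 52.6 TPM in Ewing sarcoma lines and at most 7.85 TPM in osteosarcoma lines. GPX7, a peroxidase of the endoplasmic reticulum, averaged 53.4 TPM in the former and 12.7 TPM in the latter.

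PARP1 was the most abundant member in every line, and the only one called between the tumour types by edgeR. The gene encodes the main poly(ADP-ribose) polymerase of the nucleus and lies at chr1:226360691-226408093. Over the 7 Ewing sarcoma lines its mean was 329 ± 71.8 TPM (SD), from 215 in SKES1 to 397 in MHHES1. Over the 6 osteosarcoma lines it was 169 ± 46.1 TPM, from 124 in KHOS to 249 in SAOS2. All Ewing sarcoma lines except SKES1 lay above all osteosarcoma lines, and SAOS2 lay above SKES1 with no overlap of their libraries (258.7, 237.9 and 249.4 against 212.0, 202.7 and 230.2 TPM). The log2 fold change was 0.83 (SE 0.19), a ratio of 1.78, with an adjusted p of 0.0102 by edgeR's quasi-likelihood test. With 1 of 10 members called, the share was close to the 14.4% of all genes.

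PARP2, the smaller relative of PARP1, had means of 57.6 ± 16.8 and 65.2 ± 20.7 TPM in Ewing sarcoma and osteosarcoma lines (SD, n = 7 and 6), from 35.2 in RDES to 97.2 in U2OS. Its log2 fold change was -0.21 (SE 0.27, edgeR adjusted p = 0.65). PARG, the glycohydrolase that degrades the chains, lies at chr10:49818279-49942027 and had means of 28.03 ± 5.46 and 18.9 ± 4.44 TPM, with A673 highest (34.6) and SAOS2 lowest (13.1). The log2 fold change of PARG was 0.42 (SE 0.24, edgeR adjusted p = 0.271), and 5 of 7 Ewing sarcoma lines lay above every osteosarcoma line. PARG has a near-identical copy, PARGP1, at 1.70 to 5.67 TPM in the lines, and reads may be split between them.

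XRCC1 (chr19:43543311-43575527) had means close to each other in the tumour types, 49.8 ± 11.3 and 46.9 ± 17.05 TPM, and was highest in MG63 (79.8 TPM) and lowest in HOS-MNNG (34.3). Its log2 fold change was -0.04 (SE 0.24, edgeR adjusted p = 0.938). MG63 lay above every other line, with no overlap of libraries with EW3, the next line at 67.9 TPM.

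The composition of PARP2 RNA differed between lines more than its total. The gene lies at chr14:20343635-20357904. The tables held 5 PARP2 transcripts, and 2 of them carried most of the gene's TPM. NM_001042618.2 is 1827 bases long and NM_005484.4 is 1866 bases, a difference of 39 bases. NM_005484.4 carried 54.2% of PARP2 TPM in RDES, 55.8% in EW3, 57.2% in TC71 and 70.2% in SAOS2. In each of the other 11 groups, the sh908 groups included, its mean share was between 0.551% and 2.26%.

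No library of the 4 lines with a high NM_005484.4 share overlapped any library of the others. Its share was 53.9%, 48.0% and 60.6% in the RDES libraries, 54.3%, 52.8% and 60.3% in EW3, at least 55.2% in each TC71 library and 67.1%, 77.9% and 65.7% in SAOS2. A673 had 1.58%, 1.13% and 0.881%, and the induced and uninduced sh908 libraries, derived from A673, lay in the low set as well. The high set thus held 3 Ewing sarcoma lines and 1 osteosarcoma line. PARP2 TPM did not follow the split, since RDES had the lowest total of all lines and TC71 and SAOS2 were among the highest 3. The division of reads between transcripts that share most of their sequence is an estimate made upstream of the deposited tables.

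**Figure D2:**
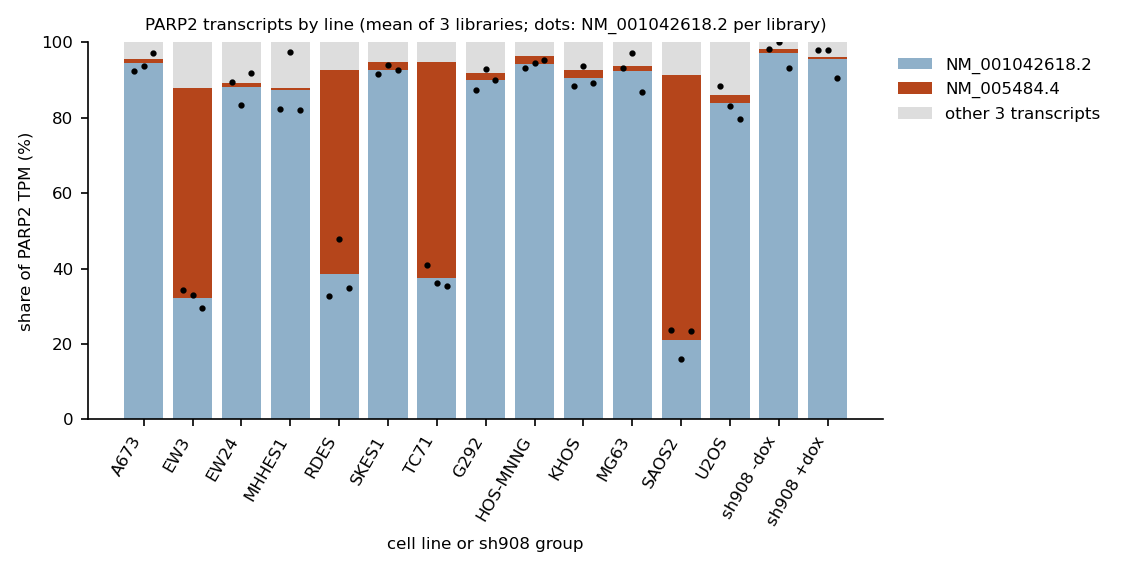
Share of PARP2 TPM, in percent on the vertical axis, carried by NM_001042618.2 (blue), NM_005484.4 (red) and the other 3 transcripts (grey), as stacked means of 3 libraries for each line or sh908 group along the horizontal axis, with black dots for the share of NM_001042618.2 in each library. EW3, RDES, TC71 and SAOS2 carry 54.2% or more as NM_005484.4 and every other group carries 2.26% or less.

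BRCA1 and BRCA2 were not called between the tumour types, and their levels differed by less than the spread between lines. BRCA1, which directs broken ends to recombination, lies at chr17:43044295-43170327 and had means of 19.5 ± 6.91 and 20.1 ± 5.68 TPM in the 2 tumour types (log2 fold change -0.29, SE 0.26, edgeR adjusted p = 0.491). The lowest lines were TC71 (10.1 TPM), A673 (10.7) and SAOS2 (12.8), whose libraries overlapped, and the highest was MG63 (29.8). BRCA2, which loads the recombinase onto single strands, lies at chr13:32315077-32400268 and had means of 6.11 ± 1.29 and 5.91 ± 2.02 TPM (log2 fold change 0.003, SE 0.25, edgeR adjusted p = 0.995). SAOS2 was highest (8.998 TPM) and KHOS lowest (3.74 TPM). Of the 12 pairs of neighbours in the order of lines, 10 overlapped for BRCA1 and 10 for BRCA2.

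ATM (chr11:108223067-108369102), the kinase of breaks in both strands, split the Ewing sarcoma lines but not the osteosarcoma lines. RDES (29.3, 18.7 and 23.7 TPM), MHHES1 (15.8, 22.1 and 19.6), EW3 (18.1, 19.4 and 17.8) and EW24 (21.1, 19.6 and 12.9) were high. A673 (12.2, 9.54 and 9.50 TPM), TC71 (10.1, 7.38 and 3.48) and SKES1 (6.29, 4.93 and 7.62) were lower, and every library of these 3 lines lay below every library of the former 4. Osteosarcoma means ran only from 9.59 TPM in G292 to 12.6 TPM in SAOS2. The log2 fold change between the tumour types was 0.21 (SE 0.24, edgeR adjusted p = 0.616).

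ATR (chr3:142449235-142578733), the kinase of exposed single strands, had means of 14.4 ± 3.37 and 13.4 ± 5.33 TPM (log2 fold change -0.05, SE 0.28, edgeR adjusted p = 0.931). EW24 (20.9 TPM), SAOS2 (20.2) and HOS-MNNG (18.2) were highest, and U2OS (6.27) and G292 (8.82) were lowest. U2OS and G292 were also the lines with SLFN11 under 1 TPM, but KHOS and HOS-MNNG, with low SLFN11, had 12.8 and 18.2 TPM of ATR.

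Within the 7 Ewing sarcoma lines, mean ATM levels ran with those of PARP1 (Pearson r = 0.934 of log2(TPM + 1)) and against those of PARP2 (r = -0.907), and ATR ran with MGMT (r = 0.930). SLFN11 had r = 0.599 with PARP1 and 0.780 with BRCA1. These are descriptions over 7 lines, picked as the largest of all member pairs apart from the SLFN11 values, and the points of a pair share their libraries. The long-to-short ratio of a library moved with the same split. It is the median deviation of 1411 genes with transcripts of at least 6000 bases from their mean over all libraries, on the log2(TPM + 1) scale, less that of 4820 genes with transcripts of 1000 to 3000 bases. Its median was 0.12 to 0.28 in the 4 lines with high ATM and -0.09 to 0.02 in A673, TC71 and SKES1. ATM RNA averaged 9502 bases and PARP2 RNA 1813 bases, and the part of this ratio in the line differences was not tested. BRCA2, with the longest RNA (11954 bases), did not follow the split: TC71 had its highest Ewing sarcoma mean (7.93 TPM) and MHHES1 its lowest (4.03 TPM), and its r with ATM was -0.15.

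MGMT (chr10:129467241-129770983) had the fewest overlaps of the 10 members: 3 of 12 neighbouring pairs in the order of lines overlapped. EW24 was highest (12.9 ± 0.872 TPM, SD, n = 3), G292 was next (11.1 ± 0.602) and EW3 followed (10.1 ± 0.197). A673 (8.40 TPM), MHHES1 (8.24), RDES (8.09) and SKES1 (7.47) were close together and overlapped. TC71 (5.00 TPM) was the lowest Ewing sarcoma line.

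In the osteosarcoma lines other than G292, MGMT descended with no overlap of libraries between neighbours, from MG63 (4.19 ± 0.520 TPM) through U2OS (3.06 ± 0.315), HOS-MNNG (1.81 ± 0.261) and KHOS (1.15 ± 0.0641) to SAOS2. The SAOS2 libraries had 0.0146, 0 and 0.0154 TPM, resting on 1, 0 and 1 estimated counts, and a count of 0 allows up to 3 counts. The tumour types had means of 8.60 ± 2.42 and 3.55 ± 3.96 TPM, and 5 of 6 osteosarcoma lines lay below every Ewing sarcoma line. The log2 fold change was 1.15 (SE 0.82), with an edgeR adjusted p of 0.385, so MGMT was not called. Across alternatives its log2 fold change ran from 0.88 to 2.19 with adjusted p of 0.0559 to 0.509, and none of them called it.

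SLFN11 and MGMT were near 0 in different lines. SAOS2, with at most 1 count of MGMT in each library, had SLFN11 at 16.9 TPM, and G292, with at most 3 counts of SLFN11, had the second highest MGMT level of all lines. The genes whose line means were most like those of MGMT were DNAAF4 (Pearson r = 0.933 over 13 lines), ZNF738 (0.928), EBF3 (0.920), CMPK2 (0.920) and NGRN (0.907). EBF3, a transcription factor, ranged from 0.0101 to 94.3 TPM in the osteosarcoma lines and from 16.97 to 125 TPM in the Ewing sarcoma lines.

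Other genes of the same repair routes were mostly not called between the tumour types. Among 24 genes of single-strand break and base excision repair, 3 were higher in the Ewing sarcoma lines and 1 was lower (median log2 fold change 0.11, against -0.06 over all genes). TDG, a glycosylase of mismatched thymine, had 82.9 ± 19.5 against 33.1 ± 10.4 TPM (log2 fold change 1.201, SE 0.28, edgeR adjusted p = 0.0132). NTHL1, a glycosylase of oxidised pyrimidines, had 63.1 against 29.95 TPM (0.94, SE 0.29, edgeR adjusted p = 0.047), and the other higher gene was PARP1. PARP3 went the other way, with 5.97 against 16.3 TPM (-1.59, SE 0.42, edgeR adjusted p = 0.0247).

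Of 27 homologous recombination genes, 2 were higher and 0 lower (median 0.27). These were BLM, the Bloom helicase, with 28.9 ± 6.24 against 13.03 ± 1.83 TPM and a log2 fold change of 0.997 (SE 0.20, edgeR adjusted p = 0.00645), and its partner RMI1, with 40.4 against 19.1 TPM and 0.96 (SE 0.24). Of 20 genes of ATM and ATR signalling, 2 were higher and 0 lower (median 0.18): CHEK1, the kinase downstream of ATR, with 65.6 against 33.1 TPM, and TIMELESS, of the fork protection complex, with 77.7 against 50.4 TPM. Their log2 fold changes were 0.83 (SE 0.23) and 0.51 (SE 0.15).

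None of 16 Fanconi anaemia genes, 8 end joining genes and 10 genes of alkylation and mismatch repair was called (medians 0.19, 0.05 and 0.14). Of 18 replication genes, used as a gauge of proliferation, 1 was higher, the helicase subunit MCM6 (140 against 72.8 TPM, log2 fold change 0.84). Called shares of these lists are read against 5.96% of all genes called higher and 8.4% called lower.

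**Figure D3:**
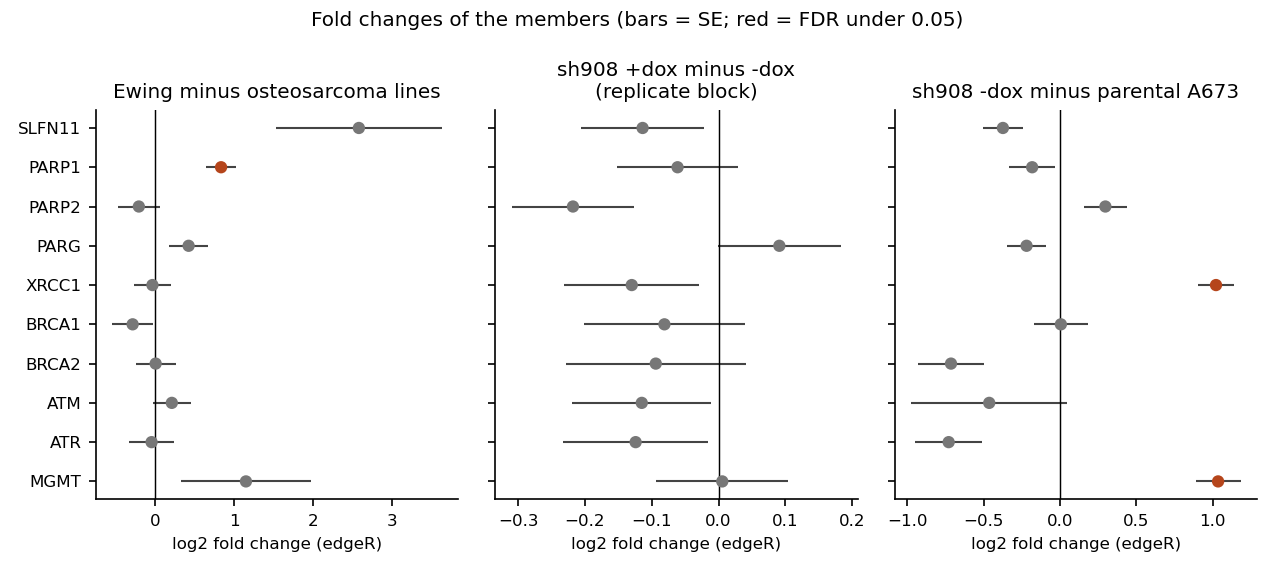
Log2 fold changes of the 10 genes from edgeR (points, with bars for 1 SE), on the horizontal axis, in 3 comparisons: Ewing sarcoma against osteosarcoma lines, induced against uninduced sh908 with the replicate number as a block, and uninduced sh908 against parental A673. Red points have an adjusted p under 0.05, namely PARP1 in the first and XRCC1 and MGMT in the last.

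The hairpin comparison asks whether the members changed when the hairpin against KCNN1 was induced. KCNN1 itself was 37.8, 35.3 and 17.99 TPM in the uninduced and 10.2, 13.7 and 7.75 TPM in the induced libraries, with no overlap, and 31.97, 38.9 and 37.2 TPM in parental A673. The induced mean was 0.348 of the uninduced mean.

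None of the 10 members was called with induction. By edgeR, 0 of 14252 genes were called (0% of genes, with 94 at an unadjusted p under 0.05, and 2 called by DESeq2). With the replicate number as a block, 73 genes were called (0.512%), again without any of the 10 members. SLFN11 was 20.03, 22.1 and 29.5 TPM in the uninduced and 18.96, 20.4 and 24.8 TPM in the induced libraries of replicates 1, 2 and 3. The 2 groups overlapped. The log2 fold change was -0.11 (SE 0.15), and -0.11 (SE 0.09) with the block, where edgeR gave an adjusted p of 0.632.

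By log2 fold change PARP2 differed most of the members, from 43.5, 42.8 and 82.5 TPM uninduced to 36.8, 37.95 and 65.9 TPM induced. Its log2 fold change with the block was -0.22 (SE 0.09, unadjusted p = 0.037, edgeR adjusted p = 0.338). ATR was 4.08, 4.16 and 10.02 TPM uninduced and 3.06, 3.98 and 9.87 TPM induced, with overlap of the groups. The remaining log2 fold changes with the block ran from -0.13 for XRCC1 to 0.09 for PARG. Of the 10 members, 0 had induced and uninduced TPM values that did not overlap, beside 3.65% of all genes. No gene of the 9 lists was called with or without the block.

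All 10 members had their highest TPM in replicate 3 both with and without doxycycline, as did 64.8% of the 14252 genes tested. Uninduced ATM was 4.23, 2.91 and 14.3 TPM, and induced ATM 4.11, 3.18 and 10.8 TPM. For BRCA2 the values were 2.10, 1.78 and 4.25 TPM uninduced and 1.54, 1.63 and 4.67 TPM induced. In both genes replicate 3 differed from the other replicates by more than the groups differed from each other. Without replicate 3 of both groups edgeR called 28 genes, and 0 of the 10 members.

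**Figure D4:**
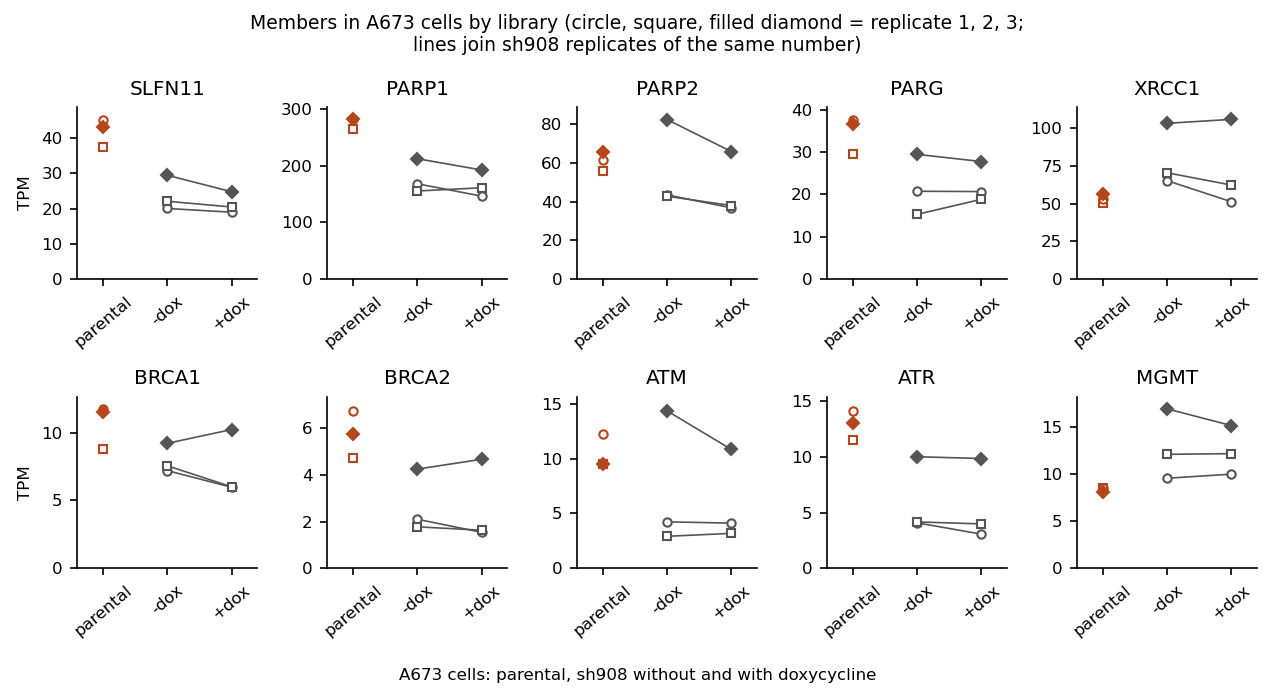
TPM of each of the 10 genes (vertical axis, from 0) in parental A673 (red) and in sh908 cells without and with doxycycline (grey), with circles, squares and filled diamonds for replicates 1, 2 and 3 and lines that join sh908 libraries of the same number. Replicate 3 lies highest in the sh908 libraries for all 10 genes, and no gene has induced libraries that all lie above or below the uninduced ones.

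Uninduced sh908 cells were also set against parental A673 cells. The labels do not say whether these 2 sets of libraries were processed together. Differences between the cells and between the sets therefore cannot be told apart. XRCC1 and MGMT were higher in the sh908 cells, the only 2 of 10 called by edgeR, where 15.1% of 15778 genes were called. XRCC1 was 65.3, 70.5 and 103 TPM in the uninduced sh908 and 53.1, 50.4 and 56.7 TPM in the parental libraries (log2 fold change 1.02, SE 0.12, edgeR adjusted p = 0.00792). MGMT was 9.54, 12.1 and 16.9 TPM against 8.55, 8.53 and 8.12 TPM (1.04, SE 0.15, edgeR adjusted p = 0.0117). In both genes the groups did not overlap, which in TPM held for 7 of the 10 members and for 46.6% of all genes. The uninduced libraries are the same as in the induction comparison.

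Both calls were lost under some choices of libraries and scale. Leaving out replicate 1, 2 or 3 of parental A673 left 0 members called and 4, 2 and 8 genes in all, and leaving out uninduced replicate 2 left XRCC1 alone. The edgeR log2 fold changes with 1 of the 6 libraries left out stayed at 0.99 to 1.06 for XRCC1 and 0.96 to 1.14 for MGMT. On log2(TPM + 1) the median over all genes was shifted by -0.32, against 0.008 after the scaling used by edgeR, and there XRCC1 differed by 0.54 (limma adjusted p = 0.0865) and MGMT by 0.52 (0.143). On the same scale PARP1 (-0.64, limma adjusted p = 0.0251) and SLFN11 (-0.81, adjusted p = 0.0281) were called. Relative to that shift, SLFN11 stood 0.48 lower and XRCC1 0.87 higher.

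SLFN11 was 42.04 ± 3.96 TPM in parental and 23.9 ± 4.98 TPM in uninduced cells (SD, n = 3), with no overlap of libraries. Its edgeR log2 fold change of -0.37 (SE 0.13) had an adjusted p of 0.101. DESeq2 called it (-0.37, adjusted p = 0.0349). ATR (-0.73, SE 0.22, edgeR adjusted p = 0.0683) and BRCA2 (-0.71, SE 0.22, edgeR adjusted p = 0.069) were not called by edgeR and were called by DESeq2 (adjusted p = 0.0143 and 0.0154). DESeq2 called 26.6% of all genes in this comparison, against 15.1% by edgeR. PARP2 (0.30), BRCA1 (0.01), PARP1 (-0.18), PARG (-0.22) and ATM (-0.46, SE 0.51) were not called by either.

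Without uninduced replicate 3, edgeR called 6 members, namely ATM (-1.35), ATR (-0.99), BRCA2 (-0.91), SLFN11 (-0.33), MGMT and XRCC1, when 62.3% of all genes were called. The 3 members with the longest RNA, BRCA2 (11954 bases), ATM (9502) and ATR (8225), had the lowest log2 fold changes, with and without that library. With all libraries, the members with the shortest RNA, PARP2 (1813 bases) and XRCC1 (2052), had 0.30 and 1.02. PARG (3844 bases), PARP1 (3978) and SLFN11 (5087) lay between these and the long members, at -0.22, -0.18 and -0.37. BRCA1 (6413 bases) at 0.01 and MGMT (4678 bases) at 1.04 stood above members with shorter RNA. Over all genes, the median log2 fold change was -0.24 for 1401 genes with transcripts of at least 6000 bases and 0.22 for 4683 genes with transcripts of 1000 to 3000 bases. The long-to-short ratio was -0.17 to 0.03 in parental A673, -0.57 and -0.47 in uninduced replicates 1 and 2 and -0.10 in replicate 3. Its part in these differences was not tested.

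**Figure D5:**
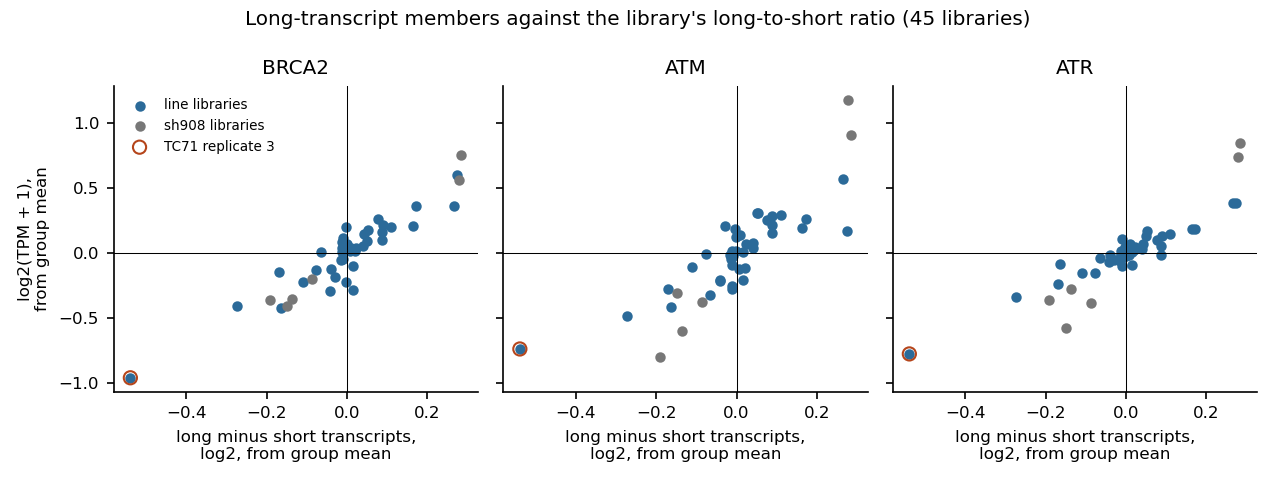
Deviation of BRCA2, ATM and ATR from the mean of their group, as log2(TPM + 1) on the vertical axis, against the deviation of the library's long-to-short ratio on the horizontal axis, for 39 line libraries (blue) and 6 sh908 libraries (grey). TC71 replicate 3 (ringed) lies lowest for BRCA2 and ATR, uninduced sh908 replicate 2 lies lowest for ATM, and the sh908 replicate 3 libraries lie at the upper right.

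The same ratio set TC71 replicate 3 apart, at -0.79 against 0.02 and 0.03 in the other TC71 libraries. In that library SLFN11 was 42.7 TPM (83.7 and 74.6 in the others), BRCA2 was 3.17 (9.39 and 11.2) and ATR was 5.40 (13.3 and 13.3), while PARP2 was 78.6 (86.4 and 76.4). Without it the TC71 mean of SLFN11 was 79.1 TPM instead of 67.0 and that of BRCA2 was 10.3 TPM instead of 7.93, above SAOS2. PARP1 was still the only member called between the tumour types.

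In the repair lists, uninduced sh908 cells had 4 single-strand break and base excision repair genes called higher and 1 lower than parental cells, with XRCC1 and OGG1, the glycosylase of oxidised guanine (0.76), at the top and TDG (-0.67) at the bottom. Homologous recombination had 1 higher, ZSWIM7 (0.73), and 2 lower, XRCC2 (-1.16) and BARD1 (-0.57), the partner of BRCA1. Of the Fanconi anaemia genes 4 were lower, led by FANCB (-0.79) and FANCA (-0.57), and of the signalling genes 3, led by CLSPN (-1.03), the adaptor of CHEK1, and RNF168 (-0.73). The list medians were 0.22, -0.27, -0.15 and -0.12, against 0.008 over all genes. The medians 0.22 and -0.27 were of the size of those by transcript length given above (-0.24 for long and 0.22 for short transcripts). The medians -0.15 and -0.12 were smaller in size. The part of RNA length in these list medians was not tested.

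Genes called among those of alkylation and mismatch repair included MGMT and ALKBH2 (0.76), which were higher, and MLH3 (-0.94), which was lower, and DCLRE1C (-0.94) was the only end joining gene called. Replication genes had CCNB1 higher (0.53) and CCNE2 lower (-1.16). In TPM the CCNB1 groups overlapped, at 300 to 509 uninduced and 338 to 360 parental. Of 15 interferon genes tested, 3 were called higher, led by IFI44L (2.42) and IFITM1 (1.92), and the list median was 0.81. IFI44L was 1.08 to 6.23 TPM uninduced and 0.534 to 0.721 TPM parental. IFITM1 was 45.9 to 176 TPM uninduced and 28.1 to 36.6 TPM parental. None of the 5 Schlafen genes tested was called (median -0.37). These calls are log2 fold changes after edgeR's scaling, read against 8.71% of all genes called higher and 6.42% called lower, and they rest on the same 6 libraries whose omission effects are given above.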

How the data were processed

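Poly(A) RNA was measured in 45 libraries, prepared with a stranded kit per the labels. Each deposited table gave estimated counts, not scaled for depth, and TPM, which the authors scaled for transcript length and depth, for 177816 RefSeq transcripts, per the file headers. The submitters' processing notes name fastp 0.19.5 and kallisto 0.46.2 and the builds hg38 and GRCh38.p14, without their roles. Transcripts were matched to genes by RefSeq accession (GRCh38.p14; 95.6% matched, and the rest held at most 1.60% of a library's counts) and summed by gene.

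Counts were rounded, filtered with filterByExpr and scaled by trimmed means (TMM), and edgeR 4.0.16 fitted quasi-likelihood models over all genes under R 4.3.3, with Benjamini-Hochberg adjustment. The 3 libraries of a line were summed, so lines were the samples. The SE of a fold change was its size divided by the square root of F. DESeq2 1.42.0 and limma 3.58.1 were alternatives, with other scalings, filters, left-out libraries and the replicate number as a block. Tables were made with Python 3.11.15 and pandas 2.3.3. Promoter sequences and positions are from RefSeq tables.

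Same-numbered sh908 libraries with and without doxycycline deviated together from their group means (r = 0.683, 0.583 and 0.881, all over 0.1), so the block is given for that comparison. The pairing comes from these correlations and not from a label, and replicate 3 weighs most in it. Libraries 1 and 2 with different numbers also deviated together (r = 0.608 and 0.518), while each against replicate 3 gave -0.778 to -0.659. These values set replicate 3 apart and do not separate 1 from 2. The 10 members and the gene lists were chosen with earlier results of these data known. Genes named were the members, the Schlafen family, KCNN1, the 5 genes most like SLFN11 and MGMT by Pearson r, and up to 2 called genes with the largest rise and fall per list; other genes were named after their values were seen. Some genes of the lists are not reported here by name.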

Additional observations from a re-analysis of the deposited data

How the results depend on the processing

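Of the members' log2 fold changes under alternatives, 510 kept their direction and their side of the threshold, 55 changed sign, 25 passed it and 20 no longer passed it. Between the tumour types, PARP1 was called under every alternative. SLFN11 made it 2 members under DESeq2 and under limma on log2(TPM + 1) and log2(TPM + 0.1), and DESeq2 called 5399 genes against 3159. XRCC1 changed sign with library totals only (0.072) and with limma on log2(TPM + 1) (0.11) and log2(TPM + 0.1) (0.12), and ATR with HOS-MNNG and KHOS as 1 line (0.047), library totals (0.091) and limma (0.15 and 0.16). BRCA2 was -0.0038 with DESeq2. With 1 line or 1 replicate number left out, the ranges were -0.13 to 0.20 for XRCC1, -0.13 to 0.11 for BRCA2 and -0.22 to 0.089 for ATR. Leaving out TC71 replicate 3, and the same replicate of both groups below, was chosen after seeing the data. For induction, no alternative called a member. DESeq2 called 2 genes in all, a fit of all 45 libraries 12 and the replicate block 73. Without replicate 3 of both groups 28 genes were called (167 with the block), and with the block 10 without replicate 1 and 7 without replicate 2. MGMT changed sign with library totals (-0.046) and limma (-0.028 and -0.029), and without replicate 1 of both groups (-0.053, with the block -0.056), where BRCA2 was 0.078 (with the block 0.043). BRCA1 without replicate 2 of both groups was 0.045 (with the block 0.053). With 1 library left out, ATM ranged from -1.02 to 0.79, ATR from -0.50 to 0.19, BRCA2 from -0.48 to 0.17, PARP1 from -0.12 to 0.0088 and MGMT from -0.080 to 0.10, and the values of ATM, ATR and BRCA2 above 0 came without uninduced replicate 3 or induced replicate 1 or 2. In these fits the group of 2 kept the pooled spread.

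For uninduced against parental cells, DESeq2 called 5 members and 4169 genes, a fit of all 45 libraries 4 and 7558, and library totals 3 members. Same-numbered libraries deviated together at r = 0.0452, 0.0866 and 0.251, which does not pair them, and the replicate block left 1 member (XRCC1) and 319 genes. Without replicate 1 or 2 of both groups 0 members and 0 genes were called (0 members and 205 and 329 genes with the block), and without replicate 3 it was 6 members and 8986 genes (6 and 8250 with the block). With 1 library left out, 0 to 6 members and 2 to 10201 genes were called. The sign changed for PARP2 with limma (-0.18 and -0.19), and for BRCA1 with library totals (-0.20), limma (-0.38 and -0.41), no filter (-0.011) and without replicate 2 of both groups (-0.18, with the block -0.19). BRCA1 ranged from -0.10 to 0.12 with 1 library left out. The block changed no other call of a member, and the cause of these changes was not tested. Line orders in log2 CPM correlated with those in TPM at a Spearman rho of 0.797 to 0.978. For SLFN11 in G292 and MGMT in SAOS2 the depth gives a few counts, so levels there have no usable precision.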
